A study of Mus musculus with 1037 samples.

Results

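*Fcgbp* encodes the IgG Fc-binding protein, a large secreted protein built of repeated von Willebrand D domains. It was taken as the single row, of 55335 gene rows in the count table, whose Ensembl identifier (ENSMUSG00000047730.17) carries that symbol. The gene was chosen by its own values in these data, as the gene with the highest ratio of summed levels in CatVII catagen over the UOS sort of late anagen among annotated genes at 50 CPM or more in either sort, so that its higher level in catagen is a description here and not a test. FCGBP protein is best known from mucus, where goblet cells secrete it together with gel-forming mucins, and it is named for binding the Fc part of IgG. Its role in hair follicle epithelium is less well described.

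Single hair follicle epithelial cells of wild-type mice were profiled by Smart-seq2, which reads whole transcripts of 1 sorted cell per well, at 3 stages of the hair cycle. In late anagen (AnaVI, the end of hair growth) the labels give 3 sorts of the outer root sheath (ORS), which is the outer epithelial layer of the follicle: LOS from the lower ORS, and MOS and UOS from its upper to middle part. In catagen, when the lower follicle dies back, the upper ORS was taken at CatVI, on 6 plates titled P17f and labelled by phagocytic (PhagoHFSC) or non-phagocytic (NonPhagoHFSC) state and by alive or apop, and at CatVII as OSalive and OSapop. P17 stands for postnatal day 17 in the study's notation, and the labels of the other sorts give no age. The study used annexin V and DAPI to identify apoptotic and dying cells, but its text does not spell out the gate of the apop cells. The study sorted cells that carried integrin α6 and CD34 and lacked Sca1, CD31, CD45, CD117 and CD140a. Among catagen cells of the upper ORS, the study names both stem cells with high CD34 and progenitors with low CD34. It pooled the mice of each stage before sorting, and the lower ORS came from the dermal and the other sorts from the epidermal fraction of the skin. No label ties a cell to an animal, so each sort or plate counts as 1 sample, no test between sorts was possible, and stage cannot be told apart from the pool of mice or the preparation. Intervals below are 95% intervals that cover counting error only.

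Of 1035 cells with a group and counts, 463 had 2000 or more detected genes and were kept: 39 of LOS, 38 of MOS, 83.6% of the UOS cells, 19, 9, 15 and 14 of P17f plates pl1, pl2, pl5 and pl6, 80.1% of the OSalive cells and 92 of OSapop. None of the 67 and 57 cells of plates pl3 and pl4 (NonPhagoHFSC alive) passed, and these plates held no *Fcgbp* count. Median depth ran from 90483 counts per cell on plate pl6 to 2182588 in OSalive, with 471277 in UOS and 482288 in OSapop. Levels are given as CPM, counts per 1000000 gene counts, and 1 gene identifier that the annotation used here does not hold took between 56.3% and 66.5% of them, so values over annotated genes alone are larger. Keratin 5, the basal epithelial keratin, was counted in every OSalive and OSapop cell kept, and *Ptprc*, the pan-leukocyte marker, in 1 and 2 of them. *Cd34*, whose protein was used in the sort, had a count in 94.6% of UOS cells, in 85 OSalive cells but not in 40, and in 68.5% of OSapop cells, and in 1 cell of each CatVI plate with passing cells.

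*Fcgbp* lies on chromosome 7 of GRCm39 at chr7:27770661-27820287 on the plus strand, and its canonical transcript has 7928 bases in 20 exons, nearly all of them coding. The 250 bases before its annotated start are shown because they hold the only match to the TATA-box core letters in this window. Capitals mark TATAA.

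Fcgbp promoter, chr7:27770411-27770660, GRCm39, plus strand: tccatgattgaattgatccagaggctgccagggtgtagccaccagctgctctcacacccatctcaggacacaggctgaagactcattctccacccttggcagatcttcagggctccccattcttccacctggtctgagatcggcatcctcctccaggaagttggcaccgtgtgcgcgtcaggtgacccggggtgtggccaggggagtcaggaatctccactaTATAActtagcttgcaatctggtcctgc

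The match begins 28 bases before the start. TATAA, read on both strands, occurred in 23.3% of 21770 promoters of protein coding genes of the same length. AGGTCA, a half-site that retinoid X and retinoic acid receptors can bind, had no match on either strand of the *Fcgbp* window and was in 13.9% of these promoters. Only these exact letters were searched. Variants of the half-site were not searched for or counted over other promoters. The printed window does hold tgaccc, which reads GGGTCA on the other strand and differs from AGGTCA only in its first letter. Whether a receptor binds there was not tested.

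The neighbouring gene *Fcgbpl1* is a paralog, and the transcripts of both genes were 84.1% identical over 7882 aligned bases. Of the 7854 possible stretches of 75 bases in the *Fcgbp* transcript, 4.02% also occurred in another gene, and in each case that gene was *Fcgbpl1*. The longest stretch that they share, at positions 5733 to 5938 of the *Fcgbp* transcript, ends exon 14 and begins exon 15. Its exon 15 part is shown because a read that falls wholly inside it cannot be assigned to either gene by its letters.

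Fcgbp exon 15, shared with Fcgbpl1, chr7:27805463-27805641, GRCm39, plus strand: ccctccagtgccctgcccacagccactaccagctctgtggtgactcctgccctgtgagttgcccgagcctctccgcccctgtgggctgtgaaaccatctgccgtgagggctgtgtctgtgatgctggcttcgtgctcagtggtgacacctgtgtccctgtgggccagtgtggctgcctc

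Reads from *Fcgbpl1* were few. That gene had between 0 and 0.442 CPM over the 9 sorts, with 85 counts in OSalive and 19 in OSapop. All 41 CatVII cells with an *Fcgbpl1* count also had *Fcgbp*, and over both sorts *Fcgbp* had 1454 counts for each *Fcgbpl1* count.

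*Fcgbp* was high in CatVII, in both the alive and the apop sort, and low or absent in most other cells. Summed over cells its level was 380 CPM in OSalive (interval 378 to 382, 109259 counts) and 574 CPM in OSapop (569 to 580, 41962 counts). In UOS, the upper sheath of late anagen, it was 4.77 CPM (4.27 to 5.32, 326 counts), and in LOS it was 0.467 CPM (0.151 to 1.09, 5 counts). MOS stood between, at 109.1 CPM (102.2 to 116.3, 932 counts). Thus, both CatVII levels lay above those of all 3 anagen sorts, whereas the anagen sorts differed among themselves by more than counting error.

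The CatVI plates did not share one level. Plate pl2 (PhagoHFSC alive) had 371 CPM (347 to 397), but 833 of its 841 counts came from 1 cell. Plate pl6 (NonPhagoHFSC apop) had 10.3 CPM (6.22 to 16.1) and plate pl5 (PhagoHFSC apop) 1.33 CPM (0.490 to 2.91). Plate pl1 (PhagoHFSC alive) had no count in 19 cells, which allows a level of up to 0.547 CPM. The 4 plates summed to 61.5 CPM (57.5 to 65.7), and to 2.39 CPM without the single high cell. Among the 9 sorts the order was therefore OSapop, OSalive, plate pl2, MOS, plate pl6, UOS, plate pl5, LOS and plate pl1. OSalive and plate pl2 overlapped in their intervals, as did plate pl5, LOS and plate pl1 among themselves, so the order within these sets is not set beyond counting error. The places of plate pl2 and of MOS rested on 1 and on 3 cells.

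**Figure D1:**
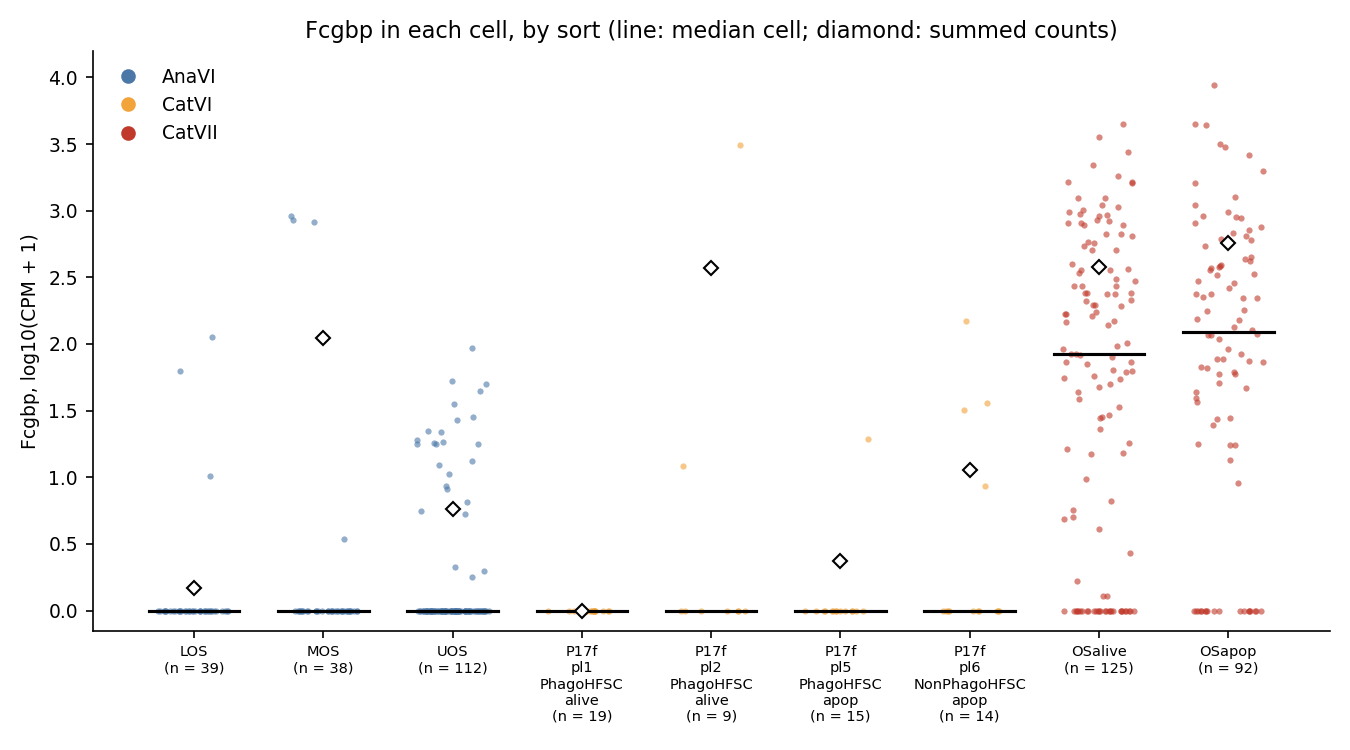
*Fcgbp* in each of the 463 cells kept, as log10(CPM + 1) on the vertical axis, by sort on the horizontal axis, with colours for the stage. Lines mark the median cell, which is above 0 only in OSalive (82.6 CPM) and OSapop (121.6 CPM), and diamonds the level of the summed counts, which in MOS and on plate pl2 is set by the few dots at the top.

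Per length of transcript, *Fcgbp* was among the more abundant messages of the CatVII cells. It had 47.96 CPM per kilobase in OSalive, the 81st highest of 15441 protein coding genes with a count, and 72.4 CPM per kilobase in OSapop, the 50th of 14291. On the same scale *Cd34* had 45.001 and 41.3 CPM per kilobase, and *Krt15*, a keratin of the bulge, 136.02 and 181.2. In UOS *Fcgbp* had 0.602 CPM per kilobase, the 9692nd of 16118, with *Cd34* at 32.6 and *Krt15* at 587 CPM per kilobase. *Fcgbp* was thus close to *Cd34* in OSalive, above it in OSapop and far under it in UOS.

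A count of *Fcgbp* was found in most CatVII cells and in a minority of all others. It was present in 97 OSalive cells and absent from 28 (77.6%, 69.3 to 84.6, exact binomial interval), and present in 74 and absent from 18 OSapop cells (80.4%, 70.9 to 87.97). In UOS 26 cells had a count and 86 had none (23.2%, 15.8 to 32.1), in MOS 4 of 38 (10.5%, 2.94 to 24.8) and in LOS 3 of 39 (7.69%, 1.62 to 20.9). The CatVI plates had 0 of 19, 2 of 9, 1 of 15 and 4 of 14 cells with a count on pl1, pl2, pl5 and pl6. The intervals of the CatVII sorts lay above those of the anagen sorts and of the CatVI plates at every comparison, whereas those of the 3 anagen sorts overlapped.

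OSalive cells were sequenced more deeply than UOS cells, so each cell was also thinned to 50000 counts. The shares then were 68.5% in OSalive (85 cells), 72.9% in OSapop (62 cells), 11.7% in UOS (13 cells), 9.38% in MOS (3 cells) and 4.35% in LOS (1 cell). On plate pl6 4 of 12 thinned cells kept a count (33.3%, 9.92 to 65.1), an interval that reached into that of OSalive (59.6 to 76.6). The 28 OSalive cells at 0 had a median of 2421671 counts against 2051845 in the 97 with a count, and of the OSalive cells with 500000 or more counts 27 were at 0 and 90 had a count. In OSapop the 18 cells at 0 had a median of 375684 counts against 550913, and 6 of 45 cells of that depth were at 0, as were 12 of the 47 shallower cells. The cells without *Fcgbp* were thus the shallower ones in OSapop and not in OSalive.

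**Figure D2:**
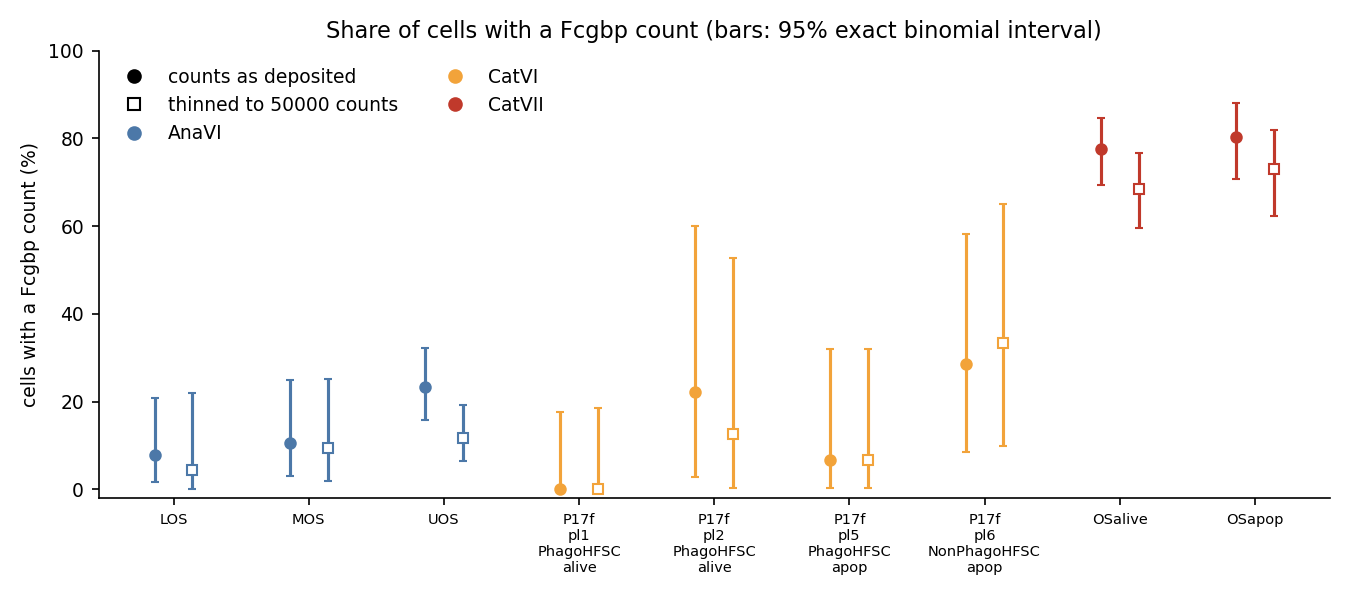
Percentage of cells with an *Fcgbp* count on the vertical axis, by sort, from the counts as deposited (filled circles) and after each cell was thinned to 50000 counts (open squares), with 95% exact binomial intervals as bars. OSalive and OSapop stay above 68% in both, and the anagen sorts below 24%.

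Among CatVII cells the level was very uneven. OSalive cells ran from 0 to 4506 CPM, with quartiles at 1.70, 82.6 and 397 CPM and a mean of 375 ± 682 CPM (SD, over all cells kept), which is a coefficient of variation of 1.82. OSapop cells ran from 0 to 8706 CPM, with quartiles at 21.8, 121.6 and 435 CPM and a mean of 540 ± 1209 CPM (SD, 92 cells), a coefficient of variation of 2.24. Cells of both sorts spread over the whole range and overlapped throughout. In OSalive 10 cells held 50% of the *Fcgbp* counts and the 5 highest held 34.8%. In OSapop 3 cells held 50%, the 5 highest 63.5% and the highest alone 28.7%. Levels of 1000 CPM or more were found in 13 OSalive and 10 OSapop cells, which is 10.4% and 10.9%.

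UOS cells with a count were low. Their values ran from 0.781 to 91.8 CPM with a median of 16.8 CPM, from 1 to 63 counts per cell, and 15 of the 26 had 5 or more counts. By contrast, OSalive cells with a count had a median of 196.4 CPM and OSapop cells one of 230 CPM. The highest UOS cell was exceeded by 60 OSalive cells, with 65 at or below it, and by 50 of 92 OSapop cells (54.3%), while the remaining CatVII cells overlapped with UOS. The 3 LOS cells with a count had 1 or 2 counts each.

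In MOS the values fell into 2 classes, with nothing in between. At the top, 3 cells had 846, 823 and 905 CPM, 1 cell had a single count and 34 cells had none. The 3 high cells lay between the upper quartile (397 CPM) and the 90th percentile (996 CPM) of OSalive. Without them MOS was at 0.134 CPM. On plate pl2 1 cell had 3121 CPM, 1 had 11.1 CPM and 7 had none.

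The genes carried by these 4 cells were looked up after their values were seen, so what follows describes those cells and tests nothing. Each had *Gata6*, a transcription factor of the upper follicle, with 17, 17, 3 and 19 counts in the order just given. Among other anagen cells, *Gata6* was found in 2 of the 35 other MOS cells, in 2 UOS cells (1.79%) and in 1 of 39 LOS cells. It was also in 1 of the 8 other cells of plate pl2. On plates pl1, pl5 and pl6 it was in 1 of 19, 1 of 15 and 1 of 14 cells. All 4 also had *Serpina3h*, with 16 or more counts each, and the upper follicle markers *Lrig1* and *Plet1*, of which *Lrig1* was also in 30 and *Plet1* in 10 of the 35 other MOS cells. The upper follicle marker *Ly6a* was at 0 in all 4, *Sostdc1* in 2 of them and *Krt17* in 1, whereas *Krt17* was in 34 of the other MOS cells. None had a count of *Cd34* or *Tgm5*. Between 5 and 7 of the 9 upper follicle markers were detected in each of them, against a median of 3 in the other MOS cells and of 4 in UOS cells, but 4 other MOS cells and 18 UOS cells reached 5 or more as well. Depth was not matched in this comparison. The 4 cells had 723823, 299084, 80640 and 266897 counts, beside a median of 148140 in MOS and 471277 in UOS. In CatVII *Gata6* was not a condition for *Fcgbp*. It was found in 12 OSalive cells, 10 of them with *Fcgbp*, and of the cells without it 87 had *Fcgbp* and 26 did not. In OSapop 12 of 14 cells with *Gata6* had *Fcgbp*, as did 62 of 78 without it. The Spearman rho of the 2 genes over cells was 0.25 in OSalive and 0.08 in OSapop. The 99th percentile of the genes ranked in OSalive was 0.23, but *Gata6* was in too few cells to be ranked. The 4 upper follicle markers that could be ranked had a median rho of 0.01 in both sorts. In OSalive and OSapop *Sostdc1* had 0.25 and 0.19, *Krt17* 0.03 and -0.19, *Lrig1* -0.01 and -0.01, and *Plet1* -0.03 and 0.02.

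Between sorts, the log2 ratio of *Fcgbp* was 6.32 (6.16 to 6.48) for OSalive over UOS and 6.91 (6.75 to 7.07) for OSapop over UOS, which is 79.7-fold and 120-fold. Of 14159 genes with 100 or more counts over OSalive and UOS, 11.5% were 2-fold or more higher and 26.6% 2-fold or more lower in OSalive. For OSapop over UOS the shares were 9.50% and 24.4% of 12329 genes. Over annotated genes alone every ratio shifts by 0.37 for OSalive and 0.24 for OSapop, and these shares become 16.9% and 18.7% for OSalive and 13.2% and 19.8% for OSapop. *Fcgbp* ranked 13th and 9th in these lists and first in both among the 820 and 856 annotated genes at 50 CPM or more in either sort. The gene was selected on this contrast, so nothing is read from that place. Against MOS the ratio was 1.80 (1.71 to 1.90) for OSalive and 2.40 (2.30 to 2.49) for OSapop. Without the cell with the most *Fcgbp* counts in each sort these became 3.07 and 3.38, and as a mean over cells 2.47 and 2.99.

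Within CatVII, OSapop exceeded OSalive by 0.60 (0.58 to 0.61) on the log2 scale, or 1.51-fold. Without the cell with the most *Fcgbp* counts in each sort the ratio was 0.31. The interval covers counting only, and the cells of either sort spread over far more than this difference. In late anagen the log2 ratio of UOS over MOS was -4.52, which turned to 5.15 without the 3 high MOS cells, an alternative chosen after seeing the data. The 35 MOS cells left held 1 *Fcgbp* count, so the size of that value is poorly set. The summed CatVI plates exceeded UOS by 3.69 (3.50 to 3.88), which became -1.17 without plate pl2. Taken alone, plate pl2 stood at 6.28, plate pl6 at 1.11 (0.36 to 1.78) and plate pl5 at -1.84 (-3.29 to -0.70). The value of plate pl6 became 0.03 without the cell with the most counts in each sort and turned to -0.55 with 3000 or more detected genes. Plate pl1, with no count, stood at -3.12 if 3 counts are allowed, and its interval reached up to -2.82.

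Genes of a like transcript length had a median ratio near that of all genes. The 1441 other genes with a canonical transcript within 20% of its length had a median log2 ratio of -0.22 (quartiles -0.70 and 0.31) for OSalive over UOS, beside -0.32 over all genes tested. For OSapop the values were -0.07 over 1357 genes (quartiles -0.58 and 0.41) and -0.22 over all genes. The highest ratio among genes of like length was 8.22 in OSalive and 7.93 in OSapop, above that of *Fcgbp*.

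None of the genes beside *Fcgbp* had a ratio like it. Of the 10 protein coding neighbours, 5 on each side, 9 were in the count table and 7 had 100 or more counts, and none of the 7 was 2-fold higher in OSalive or OSapop than in UOS, beside the 11.5% and 9.50% of all genes. *Zfp850*, *Psmc4* and *Fbl* were 2-fold or more lower in OSalive and *Zfp974*, *Zfp850* and *Psmc4* in OSapop, beside 26.6% and 24.4% of all genes. Their log2 ratios ran from -2.59 (*Zfp850*, a zinc finger gene) to 0.61 (*Zfp607a*) in OSalive and from -4.73 to 0.88, for the same 2 genes, in OSapop. Over annotated genes alone the signs of *Zfp974* and *Zfp780b* turn and *Fbl* is no longer 2-fold lower in OSalive, and 1 neighbour, *Zfp607a*, passes 2-fold in OSapop. *Psmc4*, which encodes a proteasome subunit and is the nearest gene upstream, had 19.96 CPM in UOS and 6.46 and 8.31 CPM in the CatVII sorts. *Fbl*, which encodes the nucleolar methyltransferase fibrillarin, had 9.39 CPM in UOS and 4.34 and 5.95 CPM in CatVII. *Dyrk1b*, a kinase gene, stayed within 8.90 to 13.4 CPM over the 3 sorts.

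**Figure D3:**
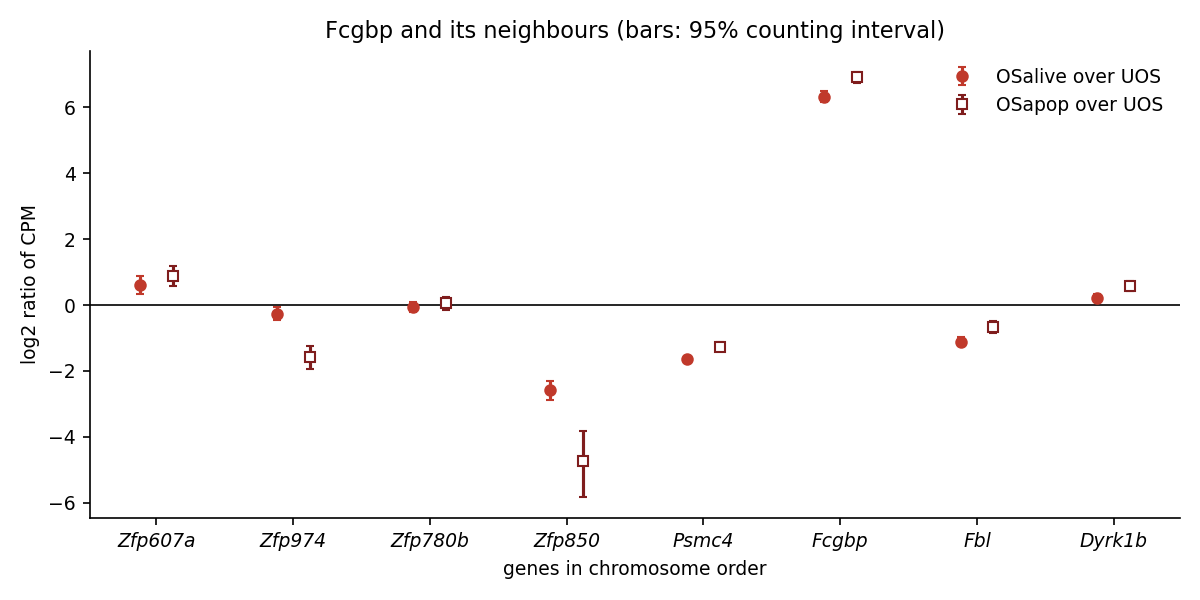
Log2 ratio of CPM for OSalive over UOS (filled circles) and OSapop over UOS (open squares) on the vertical axis, for *Fcgbp* and the neighbouring protein coding genes with 100 or more counts, in chromosome order, with 95% counting intervals as bars. *Fcgbp* stands at 6.32 and 6.91 and no neighbour exceeds 0.88.

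Genes that varied with *Fcgbp* from cell to cell were sought by Spearman's rho over the cells of a sort, with levels relative to annotated genes. All cells of a sort share 1 pool of mice, so rho is a description. UOS, OSalive and OSapop each came from more than 1 plate that the labels do not separate, so differences between plates can enter rho. In OSalive the 10 highest of 7646 genes lay between 0.31 and 0.36, and the 99th percentile was 0.23. These are weak relations, and 3 of the 10 genes stayed among the 10 highest when each cell was thinned to 50000 counts. With depth *Fcgbp* had a rho of -0.02 in OSalive and 0.06 in OSapop, and with the number of detected genes one of 0.12 and 0.13. With the share of a cell's counts in annotated genes, whose total these levels use, the rho was 0.19 in OSalive and 0.01 in OSapop, and with the share in spike-ins it was -0.11 and -0.09.

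The *Serpina3* cluster on chromosome 12, a family of protease inhibitor genes and pseudogenes, gave 4 of these 10 genes. *Serpina3h* led with 0.36 in OSalive and 0.32 in OSapop. *Serpina3i* had 0.35 and 0.36, *Serpina3g* 0.34 and 0.29, and *Serpina3e-ps*, a pseudogene, 0.33 and 0.36. The annotation used here calls *Serpina3h* a transcribed pseudogene, and genes of this cluster are so alike that the counting could have split reads between them. A pair of genes for the skin chemokine CCL27 was also among the 10, *Ccl27b* with 0.35 and 0.23 and *Ccl27a* with 0.31 and 0.33, and these too are near-identical copies. Also among the 10 were *Slc39a8*, which encodes the zinc importer ZIP8 (0.33 and 0.41), *Scube2*, which encodes a secreted protein that helps to release Hedgehog ligands (0.32 and 0.19) and *C1qtnf12* (0.33 and 0.15).

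All 10 genes had a positive rho in OSapop, where their median was 0.30 against 0.02 over all 6925 genes there. Among the 6734 genes that could be ranked in both sorts, 13 reached a rho of 0.3 in OSalive (0.193%), 51 in OSapop (0.757%) and 5 in both (0.0743%). Those 5 were *Serpina3h*, *Serpina3i*, *Serpina3e-ps*, *Slc39a8* and *Ccl27a*. The 2 sorts come from 1 pool of mice, so this is no repeat in other animals.

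In single cells the relation of *Fcgbp* to *Serpina3h* was loose. Of the OSalive cells with *Serpina3h* 87 had *Fcgbp* and 21 did not, and of the 17 without it 10 had *Fcgbp*. In OSapop the numbers were 62 of 72 and 12 of 20. Cells with one gene and without the other were thus found on both sides.

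**Figure D4:**
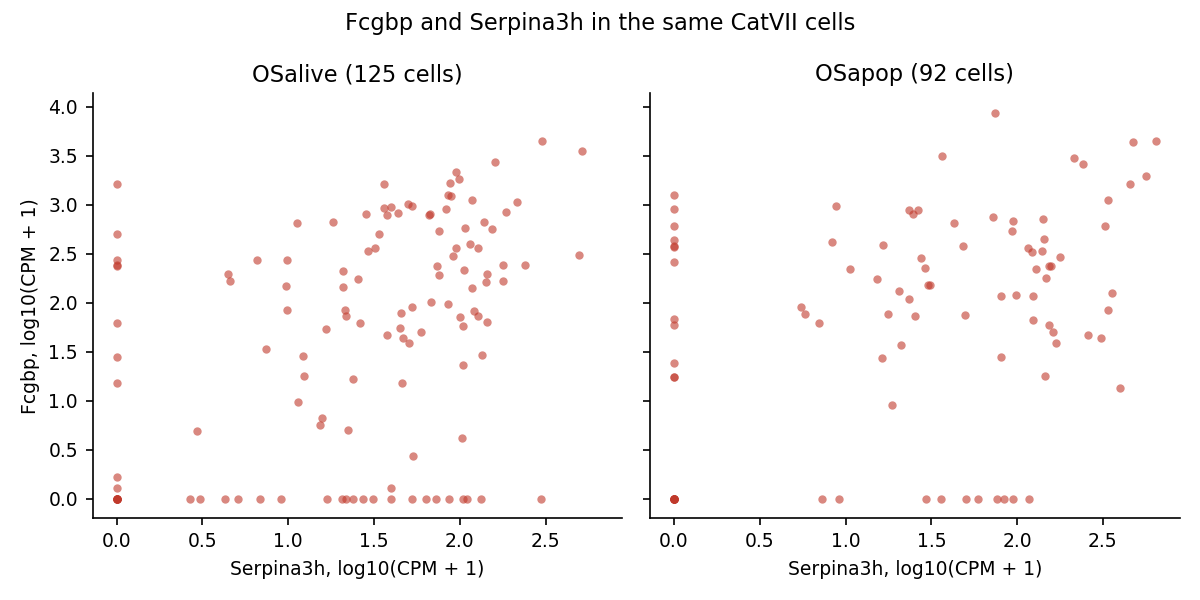
*Fcgbp* (vertical axis) against *Serpina3h* (horizontal axis) in each OSalive cell (left) and OSapop cell (right), both as log10(CPM + 1). The clouds rise to the right only weakly, with a rho of 0.36 and 0.32, and cells at 0 lie along both axes.

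At the other end, the 5 lowest values in OSalive were those of *Nrcam*, which encodes a neuronal cell adhesion molecule (-0.32), *Syvn1*, a ubiquitin ligase gene of the endoplasmic reticulum (-0.30), the microRNA host gene *Mir99ahg* (-0.29), *Miga2* (-0.28) and *Obsl1* (-0.28). In OSapop 4 of the 5 were negative, and *Miga2* had 0.07. The highest values in OSapop were 0.46 for *Hivep3*, a zinc finger transcription factor gene, 0.41 for *Slc39a8*, 0.39 for *Cacna1c*, which encodes a calcium channel subunit, and 0.38 for *Odc1*, the gene of the first enzyme of polyamine synthesis, and for *Klf6*, a transcription factor gene. Their values in OSalive were 0.20, 0.33, -0.06, 0.23 and 0.01.

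In UOS, where 26 cells had a count, the 5 highest genes were *Pik3r3*, *Snapc1*, *H4c4*, *Spef1* and *Vps39*, with 0.34 to 0.35. For the 3 of them that could be ranked in OSalive the value there was -0.00 to 0.07. None of the OSalive genes that could be ranked in UOS exceeded 0.21 there. In MOS the ranking rested on 4 cells and no gene is named for it.

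Over the 9 sorts, the genes with a pattern most like that of *Fcgbp* were *Serpina3h* (Pearson r of 0.950 on log2(CPM + 1)), *Nfatc1* (0.915) and *Vat1* (0.900), out of 1572 genes with a median r of -0.17. *Serpina3h* had 70.5 and 124.1 CPM in OSalive and OSapop, 36.5 CPM in MOS and 25.2 CPM on plate pl2, and between 0.365 and 2.62 CPM in the other 5 sorts. *Nfatc1*, which encodes a transcription factor of quiescent bulge stem cells, had 142.97 and 146.9 CPM in CatVII, 104.2 CPM on plate pl2, 71.6 CPM in MOS and 24.3 CPM in UOS. *Vat1* spanned a narrower range, from 15.96 CPM in LOS to 106.2 CPM in OSapop. The next 7 were *Hp1bp3*, *Plec*, *Cdc25b*, *Cspg4*, *Col7a1*, *Itpr2* and *Col8a2*, with r from 0.820 to 0.851. They include genes for the cytoskeletal linker plectin, a cell cycle phosphatase and the collagen of anchoring fibrils. The 9 points share stages and pools of mice, and 2 of the 4 high points are MOS and plate pl2, which rest on the few high cells. Of the 10 genes only *Serpina3h* also reached a rho of 0.3 within a CatVII sort; *Nfatc1* had 0.05 in OSalive and 0.17 in OSapop.

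**Figure D5:**
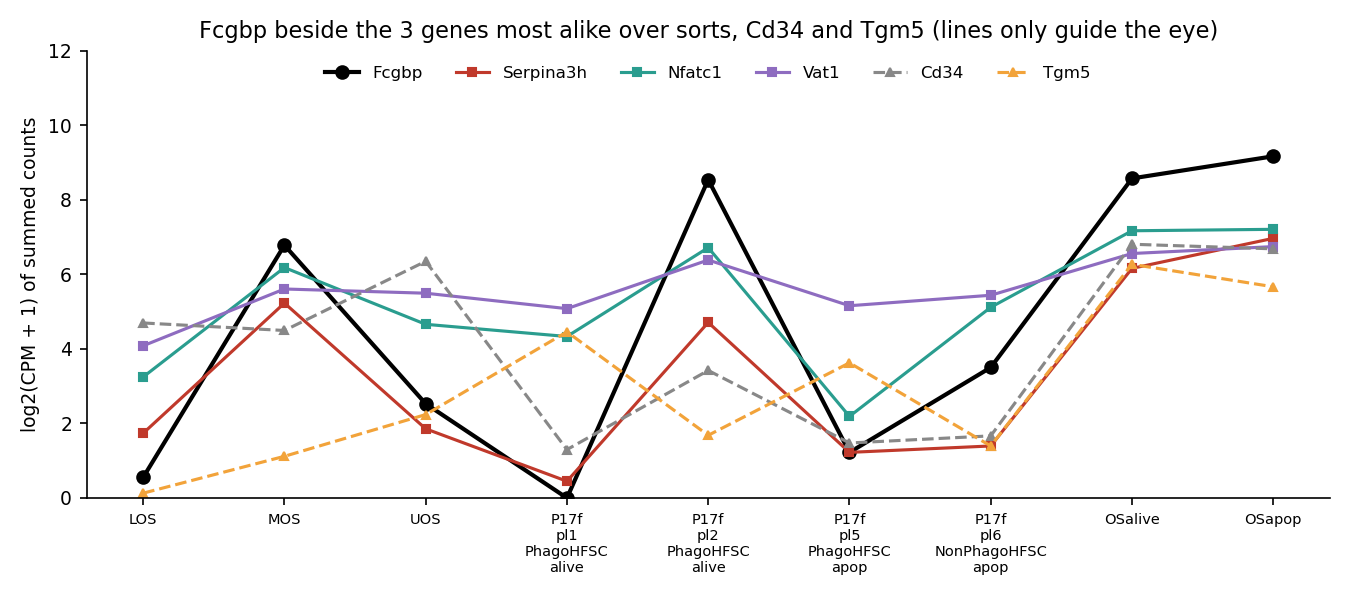
Level of the summed counts as log2(CPM + 1) on the vertical axis, over the 9 sorts on the horizontal axis, for *Fcgbp* (black), the 3 genes most alike to it (*Serpina3h*, *Nfatc1*, *Vat1*, solid lines) and *Cd34* and *Tgm5* (dashed). *Serpina3h* follows *Fcgbp* up in MOS, on plate pl2 and in CatVII, whereas *Tgm5* is at 1.17 CPM in MOS and 2.21 CPM on plate pl2.

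The partners of FCGBP in mucus were nearly absent. Of 26 mucin and goblet cell genes 23 were in the table, and only 1 reached 10 CPM in any sort. Summed over the list, these genes had 5.49 CPM in OSalive and 4.41 CPM in OSapop, below the 9.13 CPM of UOS, and 14 and 15 of the 23 had no count at all. Of the 4 with 100 or more counts over OSalive and UOS 1 was 2-fold or more higher and 2 lower in OSalive, against the 11.5% and 26.6% of all genes. Other genes with von Willebrand D domains did not stand beside *Fcgbp* either. Their summed level was 2.52 CPM in OSalive, 2.75 CPM in OSapop and 12.2 CPM in UOS, and of 5 with enough counts none was 2-fold higher and 4 were 2-fold lower in OSalive.

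Genes for its ligand and for other binders of antibodies were also low. The 13 immunoglobulin genes summed to 0.463 CPM in OSalive and 0.178 CPM in OSapop, and 10 of them had no count in OSalive and 10 in OSapop. The 13 Fc receptors and other antibody-binding genes summed to 32.5 and 31.1 CPM, of which *Lgals3*, the gene of galectin-3, gave 20.7 and 24.1 CPM. Among the 6 with enough counts 3 were 2-fold or more higher in OSalive, each at under 2 CPM, and *Lgals3* was lower, with a log2 ratio of -1.18, beside 11.5% higher and 26.6% lower of all genes. In OSapop none of 3 was 2-fold higher or lower, beside 9.50% and 24.4%.

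Markers of other cells were counted in the same sorts. The 14 immune markers summed to 13.6 CPM in OSalive, 7.51 CPM in OSapop and 2.97 CPM in UOS, and *Itgax* and *Cd207* had no count in the 3 sorts. Of the 7 with 100 or more counts over OSalive and UOS 5 were 2-fold or more higher and 1 lower in OSalive, with a median log2 ratio of 2.83 beside -0.32 over all genes tested, and beside the 11.5% and 26.6% given above. The macrophage markers *Mrc1* (6.19 CPM in OSalive, none in UOS), *Csf1r* (2.55 CPM, log2 ratio 5.86) and *Lyz2* (2.13 CPM, 5.60) were the highest of them in OSalive. In OSapop 1 could be compared, *Cd74*, which was 2-fold or more higher. These 4 are named after their values were seen. The sum was thus higher in CatVII, beside 380 and 574 CPM of *Fcgbp* itself, and no immune marker was detected in 25% of the cells, so none was ranked for rho. Fibroblast markers summed to 189.02 and 186.5 CPM in CatVII against 354 CPM in UOS, melanocyte markers to 0.866 and 1.26 CPM against 13.7 CPM, and sebaceous markers to 72.5 and 89.4 CPM against 86.2 CPM. Differentiated epidermis markers summed to 47.1 and 35.7 CPM against 186.1 CPM, and inner root sheath and hair shaft markers to 42.2 and 40.9 CPM against 947 CPM. What part cells of such kinds had in the *Fcgbp* level was not tested. Within OSalive the 2 fibroblast and the 2 differentiated epidermis markers that could be ranked had a rho with *Fcgbp* between -0.05 and 0.20. In OSapop the epidermis marker *Sbsn* had 0.29, which is the 99th percentile of that sort, and *Dsg1a* 0.08.

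Markers of the follicle's own layers were spread on both sides. Of the 12 bulge markers 3 were 2-fold or more higher and 1 lower in OSalive than in UOS, beside 11.5% and 26.6% of all genes, and 3 higher and 2 lower in OSapop, beside 9.50% and 24.4%. Among them were *Lgr5* at 255.3 CPM against 39.5 CPM and *Krt15* at 231.2 CPM against 997 CPM. Their median rho with *Fcgbp* was -0.04 in OSalive and -0.00 in OSapop. *Cd34* itself had a rho of 0.06 in OSalive and 0.33 in OSapop. *Fcgbp* was found in 70 of 85 OSalive cells with *Cd34* and in 27 of 40 without it, and in OSapop in 53 of 63 and 21 of 29. *Krt6a*, a keratin of the inner bulge, had a rho of 0.25 and 0.33. It was the only inner bulge and companion layer marker ranked in OSalive, and in OSapop *Timp3* of that list had 0.23. *Krt14*, a basal keratin, had a rho of -0.14 and -0.36, but the 6 basal epithelial markers had a median of 0.03 and -0.04. Among 12 dissociation stress genes 4 were 2-fold or more higher and 2 lower in OSalive, and none was higher and 1 lower in OSapop, beside the same shares of all genes. Their median rho was 0.01 and 0.03.

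A further 4 genes with high ratios in catagen were set beside *Fcgbp*. *Tgm5*, a transglutaminase gene, had 76.2 CPM in OSalive, 49.8 CPM in OSapop and 3.72 CPM in UOS, and its rho with *Fcgbp* was -0.08 and 0.27. It had 20.97 CPM on plate pl1, where *Fcgbp* had no count. *Ccn1*, a gene for a secreted matrix protein, had 104.9, 47.7 and 13.4 CPM in these 3 sorts with a rho of 0.07 and 0.14, and *Lrrn3*, a gene for a leucine-rich repeat membrane protein, 68.7, 84.7 and 10.99 CPM with a rho of 0.17 and 0.11. Apart from *Serpina3h*, these genes thus shared the high summed level in CatVII with *Fcgbp* but varied little with it among OSalive cells.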

How the data were processed

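Smart-seq2 counts of mouse hair follicle cells were used as deposited. Per the study's methods and processing notes, the authors aligned reads to mm39 with STAR (2.6), estimated counts per gene with Salmon (1.4.0) and compiled them in R (3.6.1). These deposited estimated counts need not be whole and were rounded. A multimapping read can be divided between near-identical genes by such estimates. Of 1037 labelled samples, 1 had no count column and 1 had conflicting stage labels and entered no group. Symbols came from GENCODE vM39 (GRCm39), which held 93.3% of the 55335 gene rows. The 92 spike-in rows were left out of totals.

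Cells with 2000 or more detected genes were kept, as in the study. CPM used all gene counts, summed over the cells of a sort. Intervals were exact (Poisson, Clopper-Pearson binomial, or the binomial split of 2 counts), at 95%, and a count of 0 was taken to allow 3 counts. The libraries carry no molecular identifiers, so copies made by PCR count as separate reads and the intervals are too narrow. Spearman's rho used genes with a symbol in 25% or more of a sort's cells, and Pearson's r genes at 50 CPM or more in a sort and in 75 or more cells. Named genes were the 10 highest and 5 lowest rho in OSalive, the 5 highest in OSapop and UOS, the 10 highest r, 5 neighbours on each side and list members at 10 CPM or more in a sort; other names are marked as chosen after their values were seen or given as markers at 0. One gene of the 10 highest rho in OSalive is not reported here. Members and lists were chosen with earlier results of these data known. Well labels recur within UOS, OSalive and OSapop (160 repeats), so each came from more than 1 plate that the labels do not separate. Functions were tested on simulated data. Alternatives were other totals, filters, thinning and leaving out cells or plates. Python 3.11.15, numpy 2.4.6, pandas 2.3.3, scipy 1.17.1 and Biopython 1.88 were used.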

Additional observations from a re-analysis of the deposited data

Results flagged for a closer look

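Plate pl2 had 9 cells that passed, and 1 of them stood far from the others, at 3121 CPM of *Fcgbp* against 11.1 CPM in the next cell and 0 in the other 7. The gap to the next cell was 0.996 of the whole range. The rule picks about 1 in 20 groups by chance only where values are normally distributed. Most values here were 0, so that rate does not hold for them.

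Cells under 2000 detected genes, which entered no comparison, also held *Fcgbp* counts. They had 569 CPM in OSalive, where 10 of 31 such cells had a count, and 321 CPM in OSapop, where 21 of 49 had one. Outside CatVII the level was 41.05 CPM in LOS (8 counts), 56.1 CPM in MOS (14 counts), 105.5 CPM in UOS (15 counts, all in 1 cell), 24.5 CPM on plate pl1 (8 counts) and 6.46 CPM on plate pl5 (5 counts).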

How the results depend on the processing

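The ratios of OSalive and OSapop over UOS kept their direction under every alternative, from 6.18 to 6.91 and from 6.60 to 7.81 on the log2 scale. Values outside the counting interval were 6.69 and 7.15 over annotated genes, 6.75 and 7.16 with median-of-ratios factors, 6.91 and 7.81 relative to spike-ins and, for OSapop, 6.60 in thinned cells. OSapop over OSalive stayed positive, at 0.46 over annotated genes, 0.52 without the most abundant gene, 0.41 with median-of-ratios factors, 0.90 relative to spike-ins, 0.53 as a mean over cells, 0.41 in thinned cells and 0.31 without the highest cell of each sort. UOS over MOS was -4.71 over annotated genes and with median-of-ratios factors, -3.83 as a mean over cells, -4.06 in thinned cells and -3.40 without the highest cells. The ratio was 5.15 without the 3 high MOS cells, an alternative chosen after seeing the data that leaves 1 count in MOS. The summed CatVI plates over UOS gave 3.47 without the most abundant gene, 4.95 relative to spike-ins, 3.50 with no filter on cells, 4.40 without plate pl1 and 4.23 without plate pl5, and turned to -0.70 without the highest cells and -1.17 without plate pl2, since 1 cell of that plate held nearly all counts. Plate pl6 alone over UOS turned to -0.55 with 3000 or more detected genes.

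The share of UOS cells with a count fell to 13.4% at 5 or more counts and 11.7% in thinned cells. That of OSalive was 68.5% in thinned cells and 68.6% with no filter on cells, and that of OSapop 67.4% with no filter. Thinned cells kept 3 of the 10 genes of highest rho in OSalive and 3 in OSapop, and a minimum of 50% of cells kept 4 in OSapop. With the CatVI plates summed, 2 of the 10 genes most alike over sorts remained. *Serpina3h* kept a rho of 0.28 to 0.38 in OSalive and 0.28 to 0.32 in OSapop, and an r of 0.912 to 0.945. Plates pl1, pl2, pl5 and pl6 had 9 to 19 cells each, and LOS 5 counts, which limits what their levels show. No paired analysis was possible because no result came from a test.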

Other observations

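One cell with an OSapop title carried the stage label CatVI and was put in no group. It had 8 *Fcgbp* counts of 52544 in all, which is 152.3 CPM, and 2674 detected genes.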
